A study of Homo sapiens with 6 samples.

Results

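The zinc-finger genes of chromosome band 19q13.43, near the end of the long arm of chromosome 19, were examined by polyA RNA-seq in HAP1 cells, a near-haploid human cell line. Members were 58 named zinc-finger and SCAN genes of the band, and 57 of the 57773 genes in the count table carried their symbols. ZNF8 was matched to no row by symbol and was not analysed here. The control group was wild-type HAP1 (n = 3 libraries), and the other group was HAP1 with the substitutions Y226A and F228A in CTCF (n = 3 libraries), a zinc-finger protein that anchors chromatin loops together with cohesin. Libraries came from a strand-specific kit. The labels name no drug or other exposure for the comparison, and the edited cells came from clones selected after Cas9 cutting and repair with an oligonucleotide. The 3 mutant libraries carry a common number in their descriptions, and whether they are separate clones or cultures is not stated. P-values therefore measure the spread between these 6 libraries, and effects of the substitutions and of the edited clone cannot be told apart.

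Most genes of this band encode C2H2 zinc-finger proteins with a KRAB domain. In such proteins the fingers read DNA, often within transposable elements, while the KRAB domain binds TRIM28, which brings in SETDB1 and other heterochromatin proteins and silences the bound site. A smaller number carry a SCAN domain, through which zinc-finger proteins pair with one another, and ZBTB45 carries a BTB domain. The genes lie side by side because the family grew by tandem duplication. Promoters of several members, among them ZNF154, ZNF471, ZNF582, ZNF667, ZNF671, ZIK1 and ZSCAN18, are known from tumours as sites of DNA methylation with loss of expression.

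Gene counts per library were 7764009 to 9610028, and 14835 genes had enough counts to be tested. CTCF itself was expressed in all libraries, at 109 ± 3.14 CPM (read counts scaled to the library's counts of tested genes with TMM factors) in the wild type and 135 ± 4.12 CPM in the mutant (mean ± SD, n = 3 each, log2 0.31, edgeR adjusted p = 4.20e-04). Counts per gene do not show the substitutions, so they check expression of the edited gene and not the edit.

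Of the 57 members with a row, 48 had enough counts to be tested, and 12 of these fell in the mutant while 0 rose. The edgeR quasi-likelihood test with Benjamini-Hochberg adjustment over all tested genes was used, with an adjusted p under 0.05 as the threshold. Among all genes tested, 9.26% fell and 11.9% rose. The members that fell were 25% of those tested, and they ranged from transcripts with no mutant counts to a 1.30-fold decrease. At least 2-fold decreases were fitted for 7 of them, and 2.36% of all genes tested fell that far. Of these 7, 4 (ZNF667, ZIK1, ZNF586 and ZNF544) passed the count filter through the wild type only and so had to be lower in the mutant. At an unadjusted p under 0.05, 0 further members were higher and 5 were lower. The share of all uncalled genes at that threshold was not computed, so nothing is read from this count. DESeq2 and limma-voom also called 0 members higher, against 1287 and 1745 of all 14835 genes. Members whose libraries did not overlap, with the mutant lower, numbered 19 of the 48 tested, against 16.5% of all genes tested. The median log2 change of the tested members was -0.14, against -0.001 for all genes tested.

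ZIK1 (ENSG00000171649.7), which encodes a KRAB zinc-finger protein first described as a partner of hnRNP K, lost all detected transcript. Its wild-type libraries held 38, 23 and 27 counts, and each of the 3 mutant libraries held 0. On the CPM scale the wild-type level was 3.42 ± 0.511 (n = 3), at least 29.9-fold above a floor of 3 counts over the mutant libraries (adjusted p = 9.73e-08). ZNF667 (ENSG00000198046.7) showed the same pattern at a lower level, with 15, 14 and 11 counts in the wild type and 0 in every mutant library. Its wild-type level was 1.57 ± 0.198 CPM, and it was at least 13.6-fold lower in the mutant (adjusted p = 1.15e-05).

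ZNF544 (ENSG00000198131.9) was nearly absent from the mutant. It had 22, 22 and 11 counts in the wild-type libraries and 1, 1 and 0 in the mutant libraries, a ratio of 28.1 with a 95% counting interval from 7.41 to 237 (Clopper-Pearson, counting error only; adjusted p = 9.21e-06). ZNF606 (ENSG00000166704.7), by contrast, kept a measurable level. In the wild type it stood at 9.97, 10.05 and 9.70 CPM, and in the mutant at 1.71, 1.56 and 1.69 CPM. This was a 5.94-fold decrease (log2 -2.57, SE 0.201, adjusted p = 3.42e-09), and the 3 libraries of each genotype lay close together.

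Promoter sequences of the members with the largest decreases, and of ZNF416 as the uncalled neighbour of ZIK1, are given for comparison of their CpG content. Each is the 250 bases before the RefSeq gene start on GRCh38.p14, 5′ to 3′ on the gene's strand, with every CG in capitals. Read counting used hg19, and these positions locate only the RefSeq windows.
ZNF667, chr19:56477346-56477595, minus strand: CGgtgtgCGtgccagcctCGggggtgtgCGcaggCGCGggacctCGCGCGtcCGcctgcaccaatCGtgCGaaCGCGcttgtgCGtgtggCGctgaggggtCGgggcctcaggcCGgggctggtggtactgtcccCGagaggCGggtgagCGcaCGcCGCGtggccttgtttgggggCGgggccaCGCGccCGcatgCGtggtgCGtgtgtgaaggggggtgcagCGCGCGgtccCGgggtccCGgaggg
ZIK1, chr19:57583895-57584144, plus strand: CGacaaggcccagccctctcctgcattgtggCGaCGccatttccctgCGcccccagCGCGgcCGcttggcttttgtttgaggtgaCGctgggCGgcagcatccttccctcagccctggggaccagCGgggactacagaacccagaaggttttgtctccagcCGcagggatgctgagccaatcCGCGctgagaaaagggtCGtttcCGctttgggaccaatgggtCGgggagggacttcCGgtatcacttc
ZNF606, chr19:58002821-58003070, minus strand: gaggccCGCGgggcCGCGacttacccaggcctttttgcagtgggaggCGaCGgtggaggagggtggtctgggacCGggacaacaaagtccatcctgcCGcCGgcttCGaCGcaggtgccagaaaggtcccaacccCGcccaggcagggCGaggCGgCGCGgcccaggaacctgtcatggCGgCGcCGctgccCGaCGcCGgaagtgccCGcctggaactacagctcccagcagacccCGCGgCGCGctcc
ZNF544, chr19:58228664-58228913, plus strand: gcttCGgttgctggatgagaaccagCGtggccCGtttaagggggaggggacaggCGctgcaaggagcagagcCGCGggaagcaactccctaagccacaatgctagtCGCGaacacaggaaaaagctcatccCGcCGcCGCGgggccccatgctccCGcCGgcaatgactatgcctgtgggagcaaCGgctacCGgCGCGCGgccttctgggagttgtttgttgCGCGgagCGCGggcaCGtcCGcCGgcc
ZNF416, chr19:57578912-57579161, minus strand: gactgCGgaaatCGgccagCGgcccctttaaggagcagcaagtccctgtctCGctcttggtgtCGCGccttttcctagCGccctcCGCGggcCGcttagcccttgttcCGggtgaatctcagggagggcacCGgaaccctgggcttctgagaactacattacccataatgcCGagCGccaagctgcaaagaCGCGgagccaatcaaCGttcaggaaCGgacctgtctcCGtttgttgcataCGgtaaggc
These windows hold 35 CpG for ZNF667, 17 CpG for ZIK1, 27 CpG for ZNF606, 26 CpG for ZNF544 and 20 CpG for ZNF416. RefSeq windows reaching 50 bases past the start were found for 52 of the 57 members, 63 windows in all, with a median of 24 CpG against 14 in all 35116 windows of the table. Among members with a single window, the median was 20 CpG for 11 of the members that fell (range 11 to 42) and 21 for 25 uncalled members (range 11 to 35). CpG content thus overlapped between the members that fell and the uncalled ones.

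ZNF814 (ENSG00000204514.5) had the most finger motifs of all members, with 23 in its coding sequence. It fell from 10.9, 10.2 and 10.6 CPM in the wild-type libraries to 2.97, 3.11 and 2.74 CPM in the mutant libraries, which was 3.59-fold (log2 -1.84, SE 0.176, adjusted p = 6.87e-08). Each mutant library lay far below each wild-type library. Exons of ZNF814 overlap exons of ZNF587 on the opposite strand in GENCODE v29, and the strand setting of the authors' counting is not given in the sources used here. ZNF587, the most abundant member, was not called, as described below.

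ZNF256 (ENSG00000152454.3), a KRAB protein known to bind TRIM28, stood at 19.4, 14.8 and 16.3 CPM in the wild type and 9.25, 9.20 and 7.81 CPM in the mutant. The decrease was 1.94-fold (log2 -0.95, SE 0.141, adjusted p = 3.10e-05), without overlap between the genotypes. ZNF551 (ENSG00000204519.6) was at 26.2, 21.7 and 23.6 CPM in the wild type and 15.3, 16.8 and 17.0 CPM in the mutant. That is a 1.46-fold decrease (adjusted p = 9.28e-04), again with each mutant library below each wild-type library.

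The decreases of ZNF586, ZNF671 and ZNF550 were less firm. ZNF586 (ENSG00000083828.11) stood at 1.87, 2.80 and 1.89 CPM in the wild type and 1.03, 0.648 and 1.16 CPM in the mutant (2.23-fold lower, adjusted p = 0.0180). ZNF671 (ENSG00000083814.8) stood at 4.67, 4.20 and 6.17 CPM and at 2.97, 3.11 and 3.06 CPM (1.64-fold lower, adjusted p = 0.0226). ZNF550 (ENSG00000251369.4) stood at 18.5, 19.6 and 19.02 CPM and at 16, 12.96 and 14.8 CPM (1.30-fold lower, adjusted p = 0.0228). For these 3 genes the libraries did not overlap between genotypes, but the calls were lost in other fits. With DESeq2 the adjusted p was 0.0903 for ZNF586, 0.0956 for ZNF671 and 0.0673 for ZNF550. ZNF586 was not called without wild-type replicate 2 (0.0975) or mutant replicate 2 (0.0833). ZNF671 was not called without wild-type replicate 3 (0.144), mutant replicate 2 (0.0508) or mutant replicate 3 (0.0560). ZNF550 was not called without wild-type replicates 2 or 3 (0.0620 and 0.0617) or mutant replicates 2 or 3 (0.105 and 0.0504). The authors' deposited table lists 55 members, with no adjusted p for ZNF154, ZSCAN1 and ZNF135. Of those listed, 9 had an adjusted p under 0.05 with a lower mutant level and 0 with a higher one. Among all genes with an adjusted p there, the shares were 7.62% and 8.85%. That table gave ZNF586, ZNF671 and ZNF550 adjusted p-values of 0.0988, 0.104 and 0.0709.

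**Figure D1:**
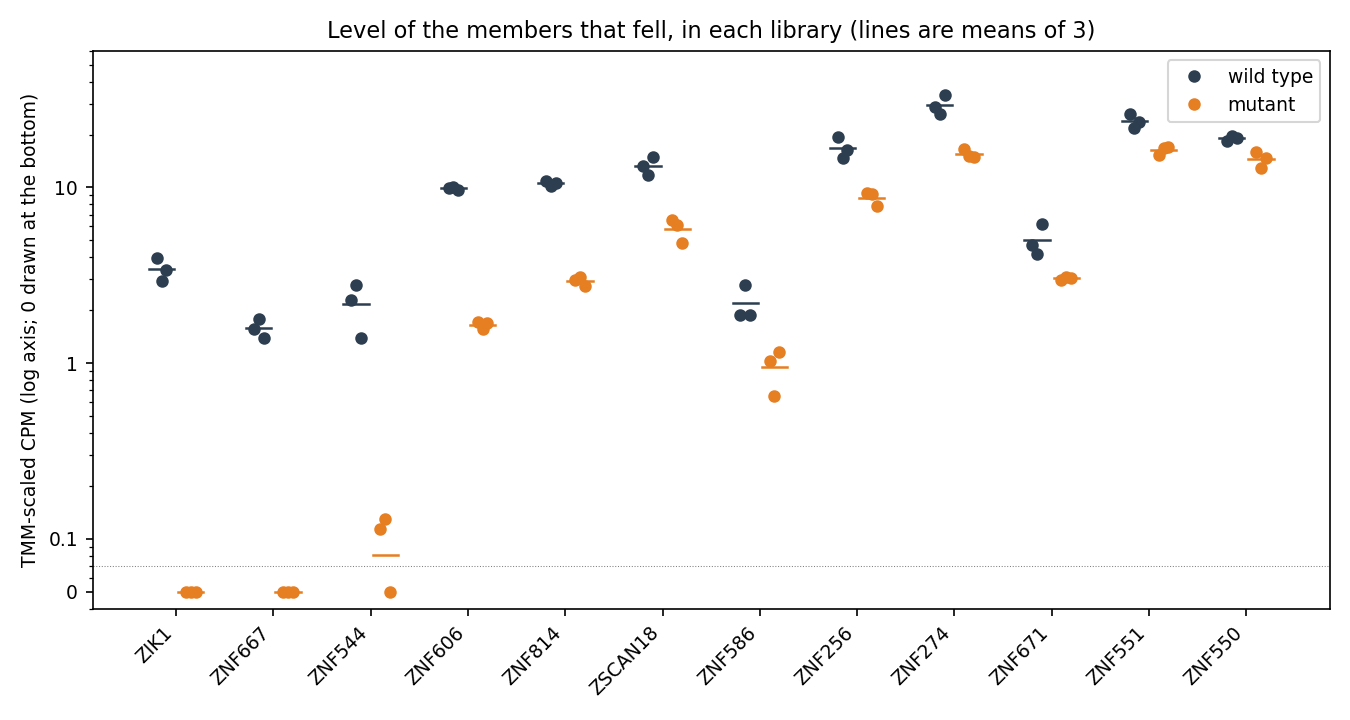
TMM-scaled CPM (log axis, 0 drawn at the bottom) of the 12 members that fell, with 1 point per library (dark for the wild type, orange for the mutant) and lines at the means of 3. Wild-type and mutant points do not overlap for any of the 12, and ZIK1 and ZNF667 sit at 0 in all mutant libraries.

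Among the members with a SCAN domain, ZSCAN18 and ZNF274 fell. ZSCAN18 (ENSG00000121413.8) stood at 13.2, 11.7 and 14.9 CPM in the wild-type libraries and 6.51, 6.09 and 4.86 CPM in the mutant libraries (2.29-fold lower, log2 -1.19, SE 0.159, adjusted p = 8.02e-06). ZNF274 (ENSG00000171606.13), which carries both domain types and is known to bind the 3' ends of zinc-finger genes and to recruit SETDB1 there, stood at 28.6, 26.2 and 33.6 CPM and at 16.6, 15.2 and 14.99 CPM. It fell 1.89-fold (log2 -0.92, SE 0.113, adjusted p = 2.55e-06), and for both genes the 2 genotypes did not overlap.

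The other SCAN members were not called. Log2 changes were -0.55 for ZSCAN5A, -0.35 for ZSCAN22, -0.21 for MZF1 and -0.13 for ZNF446, and ZSCAN1 had only 3 wild-type counts and 0 mutant counts. ZSCAN5A was at 5.71, 5.85 and 5.04 CPM in the wild type and 2.97, 4.79 and 3.69 CPM in the mutant (adjusted p = 0.0672), and it fell without mutant replicate 2 (adjusted p = 0.0339). ZSCAN22 fell without mutant replicate 3 (log2 -0.61, adjusted p = 0.0355). MZF1, a myeloid transcription factor, was at 25.1, 23.8 and 29.99 CPM in the wild type and at 29.8, 20.5 and 17.7 CPM in the mutant, with mutant replicate 1 apart from the other mutant libraries. Without that library MZF1 fell (log2 -0.47, adjusted p = 0.00439).

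Uncalled members numbered 36, with log2 changes from -0.55 to 0.41, and 21 of them were below 0. The most abundant were ZNF587, MZF1 and ZNF134. ZNF587, a KRAB protein known to bind endogenous retroviruses of the HERV-K group, stood at 90.6, 89.9 and 105 CPM in the wild type and 101, 76.1 and 76.2 CPM in the mutant (log2 -0.17, adjusted p = 0.256). Mutant replicate 1 lay among the wild-type libraries, and without it ZNF587 fell (log2 -0.32, adjusted p = 0.00150). ZNF134 was at 25.1, 25.3 and 27.2 CPM in the wild type and 19.8, 21.0 and 23.0 CPM in the mutant, just outside the threshold (log2 -0.28, adjusted p = 0.0522). It was called with other scaling factors (0.0461 with RLE, 0.0374 with upper quartile), with the replicate number as a block (0.0377) and without mutant replicate 3 (0.0396). The largest positive value was that of ZNF547 (log2 0.41, SE 0.255, adjusted p = 0.277). Rises were called only without a single library. They were those of ZBTB45 without wild-type replicate 1 (log2 0.59, adjusted p = 0.0246) and of ZNF304 and ZNF460 without mutant replicate 1 (log2 0.33 and 0.43, adjusted p = 0.0465 for both).

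Coding sequences of ZNF587 and ZNF417 are 99.1% identical over their length, those of ZNF419 and ZNF773 95%, and those of ZNF324 and ZNF324B 92.8%. How the authors' counting treated reads shared by such copies is not given, so the levels of these genes are uncertain. Of the 48 tested members, 8 had a copy of at least 90% identity over at least 80% of the length, and 0 of the 12 that fell were among them. Exons of 8 of the 12 overlapped an annotated gene on the opposite strand, as did those of 9 of the 36 uncalled members. With overlaps on either strand counted, the numbers were 9 of the 12 and 20 of the 36. These contrasts were not tested.

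The remaining 9 members were too low to test. ZNF835 and ZNF132 had 0 counts in every library, and ZNF154, ZNF135, ZSCAN1 and ZNF418 had 3, 2, 3 and 13 counts over all 6 libraries. ZNF264 had 15 counts in each genotype, ZNF497 had 25 and 33 in the wild type and the mutant, and ZNF837 had 26 and 16. In single libraries 3 counts correspond to 0.312 to 0.389 CPM. Fitted without the count filter, the 7 with any counts were not called, and their lowest edgeR adjusted p was 0.338, for ZSCAN1. The fitted log2 changes of the most abundant of them were -0.04 for ZNF264 (SE 0.574), 0.37 for ZNF497 (SE 0.416) and -0.72 for ZNF837 (SE 0.492), so small differences could not be resolved.

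**Figure D2:**
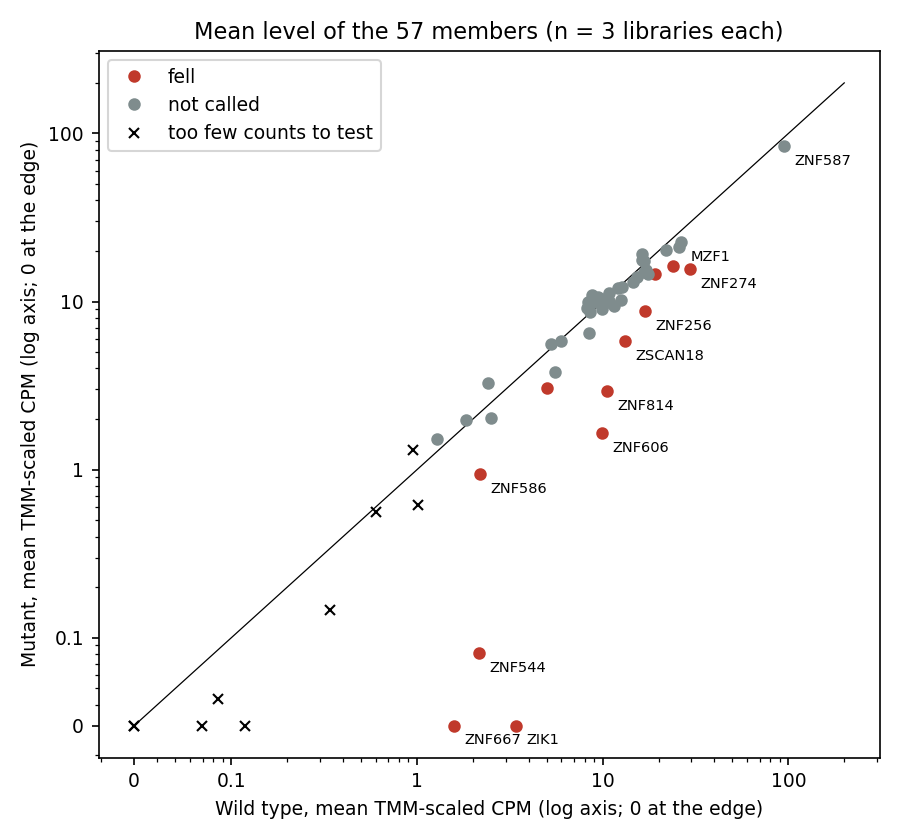
Mean TMM-scaled CPM of the 57 members in the mutant (vertical log axis) against the wild type (horizontal log axis), with n = 3 libraries each, the line of equal level, and 0 drawn at the edge. Grey members follow the line, ZNF606 and ZNF814 lie below it at similar wild-type levels near 10 CPM, and ZNF544, ZNF667 and ZIK1 lie at or near 0 in the mutant.

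Summed over the 57 members, expression went from 637 ± 17.9 CPM in the wild type to 541 ± 16.9 CPM in the mutant (mean ± SD, n = 3 each). The 12 members that fell made up 137 ± 7.37 CPM of the wild-type sum and 69.8 ± 2.33 CPM of the mutant sum, as their selection by this comparison sets. The 36 uncalled members summed to 497 ± 11.99 CPM in the wild type and 469 ± 14.3 CPM in the mutant, where 485 CPM in mutant replicate 1 lay close to 489 CPM, the lowest wild-type sum. Per kilobase of exon, on the CPM scale, wild-type levels of the 12 ran from 0.179 for ZNF667 to 7.72 for ZNF256, and those of the uncalled members from 0.227 for ZNF583 to 12.95 for ZNF587. Medians of these wild-type levels per kilobase were 1.36 for the 12 and 2.42 for the 36, with ranges that overlap widely.

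The members that fell are described here by stretches of the band. Stretches were divided after the values were seen, so no test was made and no uneven spread is concluded. From ZNF814 to ZNF544, which themselves fell and bound a stretch of 12 members, 6 of the 9 tested members fell. The other 3 were not called, with log2 changes of -0.17 for ZNF587, -0.05 for ZNF417 (SE 0.138) and -0.31 for ZNF329. From ZNF550 to ZNF587B, 5 of 12 tested members fell. From ZNF264 to ZNF549, 0 of 12 tested members were called in either direction, with log2 changes from -0.15 to 0.41. Likewise 0 of 7 were called from ZSCAN22 to MZF1 at the distal end, while ZNF667 was the 1 decrease among 8 at the proximal end. Of the members next in order to ZIK1, ZNF667 and ZNF544, ZNF274 fell and the others were not called. Log2 changes of uncalled ones were -0.30 for ZNF530, 0.14 for ZNF583, -0.28 for ZNF471 and -0.35 for ZSCAN22. Each mutant library of ZNF530 lay below each wild-type library (edgeR adjusted p = 0.119). ZNF416, next to ZIK1, transcribed away from it and sharing exonic bases with it on the opposite strand (its promoter is printed with that of ZIK1), was at 6.96, 5.09 and 5.80 CPM in the wild type and 5.14, 6.35 and 5.91 CPM in the mutant (log2 -0.05, adjusted p = 0.882), so the genotypes overlapped.

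The core of the CTCF binding motif, searched on both strands as CCA, any 2 bases, AG, any 2 bases and GGC, was found in 3 of the 63 windows (4.76%), against 2.41% of all windows of this length. They belong to ZNF814, ZNF587B and ZNF460. The 60 bases ending with the match are shown for ZNF814 and ZNF587B, since the match is the same while the changes differed, with the match in capitals and on the reverse strand.
ZNF587B, chr19:57830229-57830288, plus strand: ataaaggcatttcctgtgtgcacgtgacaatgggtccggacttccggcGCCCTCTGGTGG
ZNF814, chr19:57889043-57889102, minus strand: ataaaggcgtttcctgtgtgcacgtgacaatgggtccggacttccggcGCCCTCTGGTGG
Upstream of the match and including it, 219 of 240 bases were identical (91.2%). ZNF814 fell 3.59-fold, and ZNF587B, at 16.2, 18.6 and 18.0 CPM in the wild type and 14.51, 14.51 and 14.99 CPM in the mutant, was not called (log2 -0.26, adjusted p = 0.124). A match is a run of letters and not a measured binding site.

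Coding sequences of the members held 2 to 23 C2H2 finger motifs, counted as in-frame codons for cysteine and histidine at the spacing of a finger, with a median of 12. The fewest were found in ZSCAN18, with 2, followed by ZSCAN1 and ZNF446 with 3 each, ZBTB45 with 4, and ZSCAN5A and ZNF274 with 5 each. Medians were 10.5 among the members that fell and 11 among the uncalled ones.

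Genes off the member list that lie between the members, by gene order in GENCODE v29, were mostly low or uncalled. They include antisense transcripts of members, such as ZNF667-AS1, and the pseudogene ZNF542P. Of 103 such genes 22 were tested, of which 1 rose and 0 fell with edgeR, against 11.9% and 9.26% of all genes tested. At an unadjusted p under 0.05, 1 was lower and 1 higher. The share of all genes at that threshold was not computed, so nothing is read from these counts. DESeq2 and limma-voom also called 0 of them lower. Without the count filter, 52 were fitted, of which 3 fell and 1 rose, against 1693 and 1797 of all 25665 genes fitted. Again 1 fell when replicate 1 or 2 of the wild type or replicate 3 of the mutant was removed. In those fits 1042 of 14935, 1207 of 15224 and 1132 of 14984 genes fell. TRIM28, the KRAB corepressor, lies among them and stood at 622 ± 17.9 CPM in the wild type and 615 ± 15.7 CPM in the mutant (n = 3 each, log2 -0.02, adjusted p = 0.845). CHMP2A, an ESCRT-III subunit gene, rose from 54.8 ± 4.09 to 64.9 ± 4.46 CPM (log2 0.25, adjusted p = 0.0280). That call was lost with DESeq2 (0.0723) and without wild-type replicate 1 (0.161), mutant replicate 1 (0.0794) or mutant replicate 2 (0.0861). Of 30 neighbours with counts too low to test, 4 had each mutant count below each wild-type count and 0 had the reverse. The share among all genes too low to test was not computed, so these numbers have no background to be read against. The 3 that fell without the filter are among these 4. They are named after their values were seen. ZNF667-AS1, whose exons overlap those of ZNF667 on the opposite strand, had 8, 7 and 9 counts in the wild type and 0, 1 and 0 in the mutant. The ratio was 24.5 (95% counting interval 3.99 to 1007, edgeR adjusted p = 6.95e-05 without the filter). Because the strand setting of the counting is not given, ZNF667 and ZNF667-AS1 are not taken as separate observations. CTD-2368P22.1 had 25 wild-type and 4 mutant counts (adjusted p = 0.00233), and ZNF582-AS1 had 35 and 12 (adjusted p = 0.0154). The fourth, VN2R19P, had 7 wild-type and 0 mutant counts and was not called (adjusted p = 0.0602).

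Genes of the machinery through which KRAB proteins act were called about as often as other genes. Of 30 tested genes of a list of corepressor, heterochromatin and HUSH genes, 3 rose (10%) and 3 fell (10%), against 11.9% and 9.26% of all genes tested. Their median log2 change was 0.01. SETDB1, the H3K9 methyltransferase recruited by TRIM28, was at 70.8 ± 5.21 and 68.4 ± 3.004 CPM in the wild type and the mutant (log2 -0.05, adjusted p = 0.710). CHD3, a remodeller of the NuRD complex, rose from 331 ± 21.2 to 438 ± 12.1 CPM (log2 0.41, adjusted p = 4.29e-06), and CBX5, which encodes HP1 alpha, rose by 0.33 on the log2 scale (adjusted p = 9.76e-05). ATF7IP, a partner that stabilises SETDB1, fell from 135 ± 0.969 to 111 ± 3.39 CPM (log2 -0.29, adjusted p = 6.22e-04). Smaller decreases were those of SMARCAD1 (log2 -0.23, adjusted p = 0.0260) and MORC2 (log2 -0.22, adjusted p = 0.0415). SMARCAD1 was not called without wild-type replicates 1 or 2 (0.0564 and 0.105) or mutant replicates 1 or 2 (0.0998 and 0.0780). MORC2 was not called with DESeq2 (0.0759) or without wild-type replicates 1 or 2 (0.128 and 0.151) or mutant replicates 2 or 3 (0.163 and 0.0529).

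Zinc-finger genes elsewhere on chromosome 19 fell at a similar share. Of 159 tested genes with ZNF symbols on that chromosome outside the member list, 39 fell (24.5%) and 4 rose, with a median log2 change of -0.09. Of 216 tested ZNF genes elsewhere in the genome, 13 fell (6.02%) and 20 rose, with a median of 0.01. These differences were not tested.

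**Figure D3:**
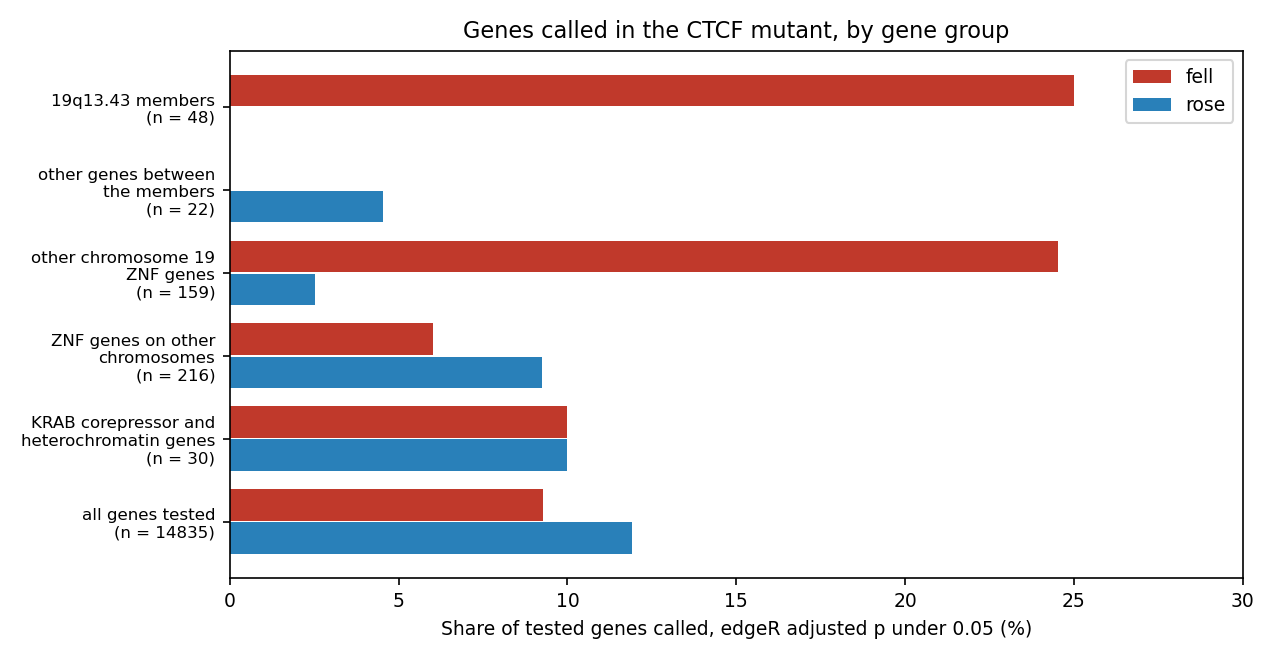
Share of tested genes called at an edgeR adjusted p under 0.05 (horizontal axis, percent) in each gene group, with red bars for genes that fell and blue bars for genes that rose. The 48 tested members and the 159 other chromosome 19 ZNF genes have red bars of 25% and 24.5%, against 9.26% over all 14835 genes.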

How the data were processed

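PolyA RNA was measured in 6 libraries, 3 per genotype. The submitters' processing notes name TopHat2 2.1.1, HTSeq, DESeq2 and build hg19. The role of each tool and the strand setting of the counting have no statement in the sources used here. The authors deposited raw read counts for 57773 genes, with 5 closing totals that name no gene. These totals held 22.4 to 24.3% of all reads counted and were left out. A DESeq2 comparison is also deposited. Its signal is a mean of normalized counts over the libraries, computed by the authors per the file headers. Its log2 fold change with a standard error was fitted by the authors, per the file headers. Its score is the Wald statistic that the authors computed, per the file headers. Its p-value, with an adjusted one, was computed by the authors, per the file headers. Of the columns of sample values, 0 were left unused.

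Symbols came from the authors' table or, by Ensembl identifier, from GENCODE v29, for 52610 genes. The main test was the robust quasi-likelihood F test of edgeR 4.0.16 in R 4.3.3 (filterByExpr, TMM, two-sided, genotype only), adjusted over 14835 genes. CPM is relative to the counts of tested genes, with TMM factors. Fitted log2 changes carry a prior count of 0.125, and each SE is derived from the test statistic. A fold against 0 counts uses a floor of 3 counts over the group, and intervals and floors cover counting error only. Alternatives were RLE and upper-quartile factors, DESeq2 1.42.0, limma-voom 3.58.1, no filter beyond 1 count, a replicate block, and leaving out each library. The test was tried on simulated data.

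The members, lists and tests were chosen with earlier results of these data known. The genes named are CTCF, every called member, the 3 most abundant uncalled members, TRIM28, SETDB1, up to 5 called corepressor genes and called protein-coding neighbours. Other members and neighbours are named where a passage describes them, and some uncalled members are not named. Near-identical copies were found by coding sequence, an alternative added after seeing the data, and the planned comparison of proteins was not run.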

Additional observations from a re-analysis of the deposited data

How the results depend on the processing

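Across 12 alternative fits, the log2 changes of the 12 members that fell kept their direction in all 144 values. Of these values, 132 also kept the call. The 12 members were selected on these same libraries, so a kept direction was largely set by that selection. ZNF667, ZIK1, ZNF586 and ZNF544 passed the count filter through the wild type only, which also set their direction. The 12 lost calls belong to ZNF550, ZNF586 and ZNF671. Members called lower numbered 13 with RLE or upper-quartile factors, 9 with DESeq2, 12 with limma-voom or no filter beyond 1 count, and 10 to 14 when each library was left out in turn. Members called higher numbered 0 to 2 when each library was left out, with 1 when wild-type replicate 1 was removed and 2 when mutant replicate 1 was removed, and 0 in the other fits. The cause was not tested. Over all genes, 1374 of 14835 fell in the main fit, 1449 with RLE and 1588 with upper-quartile factors. DESeq2 called 1002 lower and limma-voom 1369, and 1693 of 25665 fell without the filter. With single libraries left out, the range was from 1042 of 14935 (without wild-type replicate 1) to 1640 of 14958 (without mutant replicate 1). Those fits called 1423 and 1825 genes higher. The median log2 change of tested members ran from -0.16 to -0.11. The log2 ratio of the summed CPM was -0.23, and -0.26 to -0.21 without single libraries. Leaving out members with a near-identical copy could not change the 12 decreases, since 0 of the 12 had such a copy. Same-numbered libraries did not deviate together (correlations across genes of 0.0862, 0.0998 and -0.124), so the numbers were not taken as pairs. With the replicate number as a block, 13 members fell and 0 rose, against 1615 and 1959 of all 14835 genes. ZNF134 was added in that fit (edgeR adjusted p = 0.0377), and the median was -0.13. The planned comparison of protein sequences was not run. Depth limits the precision for the 9 untested members, at 25 or fewer counts per genotype except ZNF837 with 26 and ZNF497 with 33.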
